A study of Mus musculus with 4 samples.

Results

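Smgc, the gene of submandibular gland protein C, was 1 of 32285 genes listed in a single-cell RNA count matrix of the mouse submandibular gland (SMG) and sublingual gland (SLG). It was selected because earlier results from the same matrix had shown it concentrated in few cells, so its levels over cells and clusters are described here and were not tested. The cells came from untreated wild-type (WT) female C57BL/6N mice, 6 to 8 weeks old. The labels list 4 samples, each from both glands and from 2 mice, and every barcode in the matrix carried 1 and the same suffix. Since the barcodes thus hold no record of their sample, animal or gland, the matrix counted as 1 sample, and no replicate error, p-value or comparison of the glands was possible.

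Submandibular gland protein C is a secreted, mucin-like product of salivary epithelium. In rodents it is best known from the perinatal SMG, where it marks the early secretory cells of the terminal buds, and from the intercalated ducts, the narrow tubes that lead saliva out of the acini, of the adult female gland. Smgc shares its first exon with Muc19, the gene of the gel-forming mucin of the SLG, and the 2 RNAs are made from the same strand by alternative splicing.

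On the GRCm38 assembly (GENCODE M21 annotation), Smgc (ENSMUSG00000047295) lay at chr15:91838265-91861438 on the plus strand and was annotated as protein coding, with 10 transcripts. The transcript Smgc-201 had 18 exons and 2977 bases, of which 2199 were coding. Muc19 (ENSMUSG00000044021) lay at chr15:91838326-91934555 on the same strand, and M21 annotates it as a processed transcript, with no coding sequence. Exons 2 to 18 of Smgc-201, 17 exons in all, lay inside the first intron of the transcript Muc19-202, which was 32051 bases long. Only 95 of the 3410 bases in any Smgc exon, 2.79%, were also in a Muc19 exon, and all other Smgc exon bases belonged to Smgc alone. No gene other than these had an exon in the span of Smgc-201. The last Smgc-201 exon, 889 bases long, ended 9036 bases before the next Muc19-202 exon and 73120 bases before the Muc19-202 end, so the 3′ ends read by this assay were far apart. Unspliced Muc19 RNA would still contain the Smgc exons, and the deposited counts carry no read positions, so the part of such RNA in the Smgc counts was not tested.

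**Figure D1:**
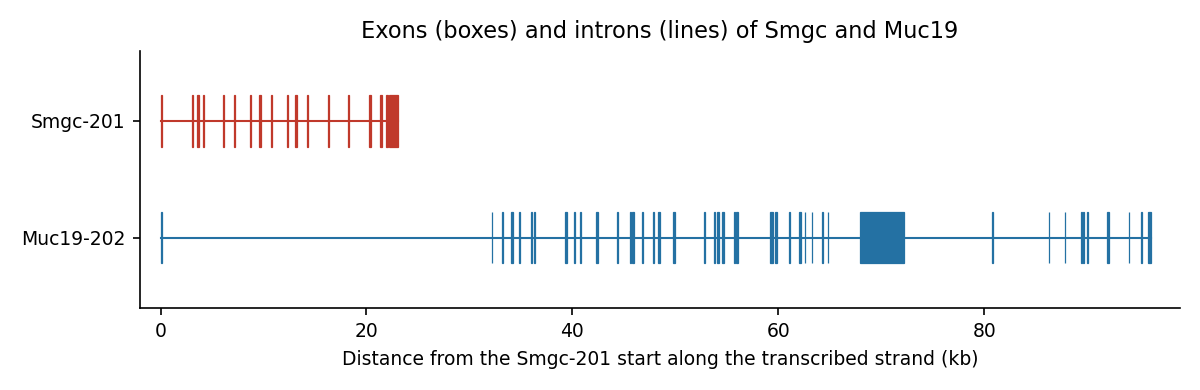
Exons (boxes) and introns (lines) of Smgc-201 (18 exons) and Muc19-202 (43 exons), to scale. The x axis is the distance from the Smgc-201 start in kilobases along the transcribed strand. The first exons overlap, and the other 17 Smgc exons fall in the first Muc19 intron.

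The shared start is shown because it is what the 2 genes have in common and where they part. The coding sequence of Smgc-201 began at position 91838369 and ran for 52 bases to the end of exon 1, at position 91838420, and exon 1 of Muc19-202 covered the same bases. From there the transcript went on in Smgc-201 at chr15:91841332-91841361 and in Muc19-202 at chr15:91870472-91870501. Both stretches come from the GENCODE M21 transcripts, and capitals mark the first 30 bases of exon 2.
Smgc-201: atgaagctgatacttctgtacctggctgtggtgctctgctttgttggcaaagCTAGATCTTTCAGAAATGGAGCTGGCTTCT
Muc19-202: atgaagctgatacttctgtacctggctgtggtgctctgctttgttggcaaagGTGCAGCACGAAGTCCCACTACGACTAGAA
The 52 bases in lower case were identical in both transcripts. Smgc-201 also held repeated exons: exons 7 and 10 (99 bases), 8 and 11 (171 bases) and 9 and 12 (90 bases) were identical in pairs, so reads within these exons could not be placed on 1 exon of the pair.

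The 250 bases upstream of the RefSeq start of Smgc, chr15:91838078-91838327 on the plus strand of GRCm38.p6, are shown because the genes described below as varying with Smgc were searched for the same motif. Capitals mark the TATA box letters TATAAA.
Smgc promoter: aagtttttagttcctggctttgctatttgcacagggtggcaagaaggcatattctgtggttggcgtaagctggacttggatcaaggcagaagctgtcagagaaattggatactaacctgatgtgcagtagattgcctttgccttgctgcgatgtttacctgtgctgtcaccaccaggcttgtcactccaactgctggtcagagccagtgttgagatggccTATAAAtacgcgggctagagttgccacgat
TATAAA occurred once, on the transcribed strand, starting 30 bases before the start. Of 32851 promoters of the same length, 12.4% held it on either strand, 7.59% on the transcribed strand and 2.14% between 45 and 15 bases before the start. The letters ACAAT (the core of Sox motifs) and ACGTG (held in several unfolded-protein-response elements) were not in the window on either strand, against 27.7% and 16.6% of all promoters. Among the 21 of 23 other genes named below that had a RefSeq promoter, 3 held TATAAA on the transcribed strand, and in 2 of them, 5530400C23Rik and Fam25c, it lay 45 to 15 bases before the start.

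The matrix held 15707 barcodes and 125100595 unique molecular identifiers (UMIs, 1 per captured RNA molecule), with a median of 2608 UMIs and 689 genes per barcode and a range of 1374 to 141509 UMIs. The most abundant transcript, Mucl2, took 41.2% of all UMIs. Clustering on 1998 variable genes, with Smgc and Muc19 left out, gave 26 clusters, and 12 of them, with 11204 barcodes, were epithelial by their markers. Levels are given as UMIs per 10000 UMIs summed over the barcodes of a cluster, with exact Poisson 95% intervals, and shares of barcodes with exact Clopper-Pearson 95% intervals. These intervals cover counting error only.

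Smgc was abundant and very unevenly spread. Its 213146 UMIs were 0.170% of all UMIs and placed it 22nd of all genes, yet 50% of them were in 100 barcodes, 75% in 198 and 90% in 472. At least 1 Smgc UMI was found in 5740 barcodes (36.5%, 35.8 to 37.3), but the median among these was 2 UMIs. Exactly 1 UMI was found in 2680 barcodes, 2 to 9 in 1895 and 10 or more in 1165. The upper end reached 100 or more UMIs in 288 barcodes and 1000 or more in 44, with a highest count of 3051. In 1 barcode Smgc made up 38.3% of all RNA molecules counted. The 157 barcodes with most Smgc, 1% of all, held 66.2% of its UMIs. Over the 3501 genes found in at least 1000 barcodes, the median of that share was 18.2%, and only Muc19 (88.4%) and the major urinary protein gene Mup4 had larger ones.

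For each barcode the Smgc level was also taken per 10000 UMIs other than Smgc, so that the gene does not dilute itself. On this scale 9967 barcodes (63.5%) were at 0, 3750 (23.9%) were above 0 and under 10, and 1420 (9.04%) were at 10 to under 100. A further 373 barcodes (2.37%) were at 100 to under 1000 and held 20.3% of Smgc UMIs. The 197 barcodes (1.25%) at 1000 and over held 69.0%. The last 2 ranges together, 570 barcodes (3.63%, 3.34 to 3.93), are called Smgc-high. The limit of 100 cut through a continuous range: 200 barcodes lay between 80 and 125, the lowest level inside was 100 and the highest outside was 99.9. The counts had a dip at 562 to 1000 per 10000, with 36 barcodes, between 196 barcodes at 100 to 178 and 98 barcodes at 1778 to 3162. The ranges also differed in depth: the median was 2001 UMIs and 489 genes at 100 to under 1000, and 3528 UMIs and 1092 genes at 1000 and over.

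**Figure D2:**
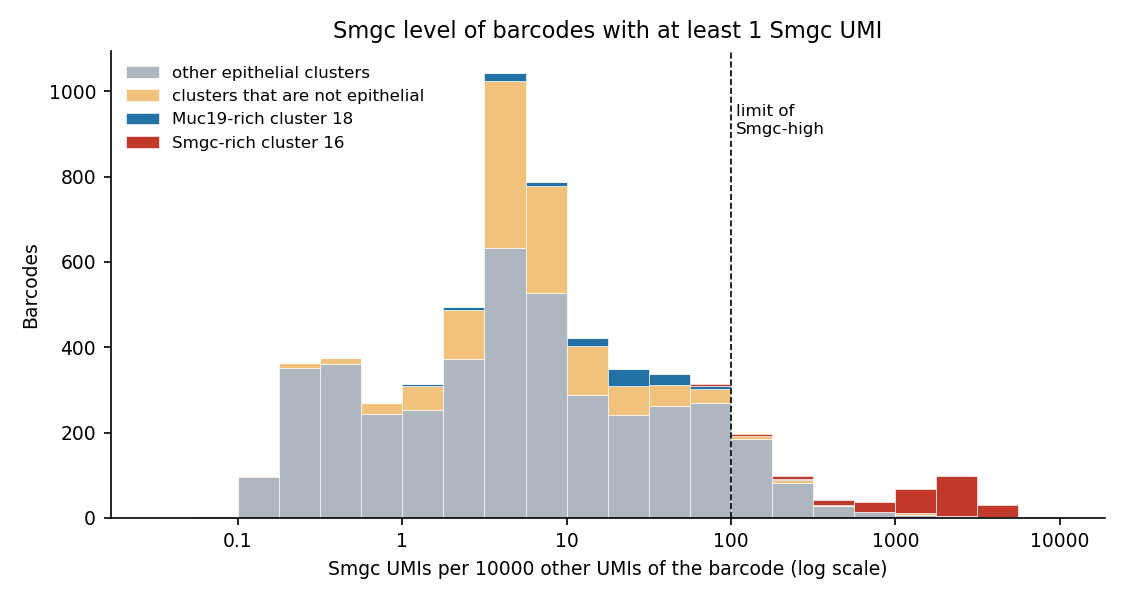
Number of barcodes (y axis) by Smgc UMIs per 10000 other UMIs of the barcode (x axis, log scale), for the 5740 barcodes with a Smgc UMI, stacked by cluster group. The dashed line is the limit of Smgc-high at 100. Cluster 16 makes up most barcodes above 1000, and other epithelial clusters most of those between 100 and 562.

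Smgc had 1 cluster far above the rest. Cluster 16, with 230 barcodes, held 139822 Smgc UMIs, 65.6% of the total, at a level of 1526 (1518 to 1534) per 10000. Smgc was found in all 230 of its barcodes, with 1 to 3051 UMIs and a median of 556 per barcode, and 225 of them were Smgc-high. Per barcode the level had a median of 1899 per 10000 other UMIs, and 90% of the barcodes lay between 227 and 3921. Although Smgc and Muc19 were kept out of the clustering, the other genes of these same cells set the cluster, so its difference from the other clusters is a description. Cluster 16 had no name by the marker rule. It held 4 of 10 serous acinar markers (Aqp5, Cldn10, Lman1l and Pip) and 2 of 13 ductal markers, the keratins Krt8 and Krt18. It also held 2 of the 6 intercalated duct markers (Gstt1 and Sox9). Aqp5, Cldn10 and Lman1l were highest in the mucinous acinar-like cluster 18. The serous markers not held, Bhlha15, Bpifa2, Gjb1, Lpo, Prol1 and Car6, put cluster 16 at ranks 1, 10, 13, 14, 16 and 20 among the clusters. Its 10 leading genes were Smgc, Fgg, Col11a1, Fam25c, Hp, Prlr, Phyh, Gm44410, Mif and Asrgl1.

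The order of the clusters below it rested on few barcodes. The next level, 93.1 (91.5 to 94.7), was that of the basal or myoepithelial-like cluster 15, lower by 16.4-fold. Of the 231 barcodes there, 34.6% had a Smgc UMI and 16 were Smgc-high, and without those 16 the level was 3.33. Cluster 21, which held 7 of 10 lymphoid markers and was led by proliferation genes such as Stmn1 and Top2a, had 51.9. Without 2 Smgc-high barcodes it had 1.09. Cluster 8, which held 6 ductal and 4 intercalated duct markers and was led by the exocrine-gland peptide gene Esp4, had 35.6, and 3.72 without 26 barcodes. The vascular-like cluster 13 (18.9) and the mesenchymal-like cluster 14 (16.8) came to 0.896 and 0.679 without 2 and 1 barcodes. In each of these 5 clusters the place in the order came from the Smgc-high barcodes. Leaving out those barcodes removes the highest values by construction, so the second value is the level of the remaining barcodes and not an error of the first.

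Smgc was more evenly spread in a few other clusters. The mucinous acinar-like cluster 18 had 12.8, and 12.03 without its 2 Smgc-high barcodes. Cluster 20, which held 7 serous acinar markers beside Acta2 and Krt14, had 7.19, and 6.38 without 4. In these 2 clusters 93.8% and 88.1% of barcodes had a Smgc UMI, at medians of 5056 and 18060 UMIs per barcode. Clusters 0 and 1, led by the Dcpp genes of demilune proteins and by secretoglobins, held 144 and 110 Smgc-high barcodes and stood at 11.8 and 12.8, or 6.13 and 4.55 without these. Their barcodes had medians of only 325 and 426 genes. Cluster 10, also led by Dcpp genes but with a median of 1281 genes, stood at 0.462 (0.424 to 0.502) and held 0 Smgc-high barcodes. The serous acinar-like cluster 2 was near the bottom of the order, at 0.971 (0.946 to 0.996), although 48.7% of its barcodes had a Smgc UMI, at a median of 27502 UMIs. Neighbours in the order whose intervals overlapped were clusters 1 and 18, the run from cluster 5 through 20, 6, 4 and 7 to 12, and the run from cluster 22 down to cluster 19 at the lowest level.

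**Figure D3:**
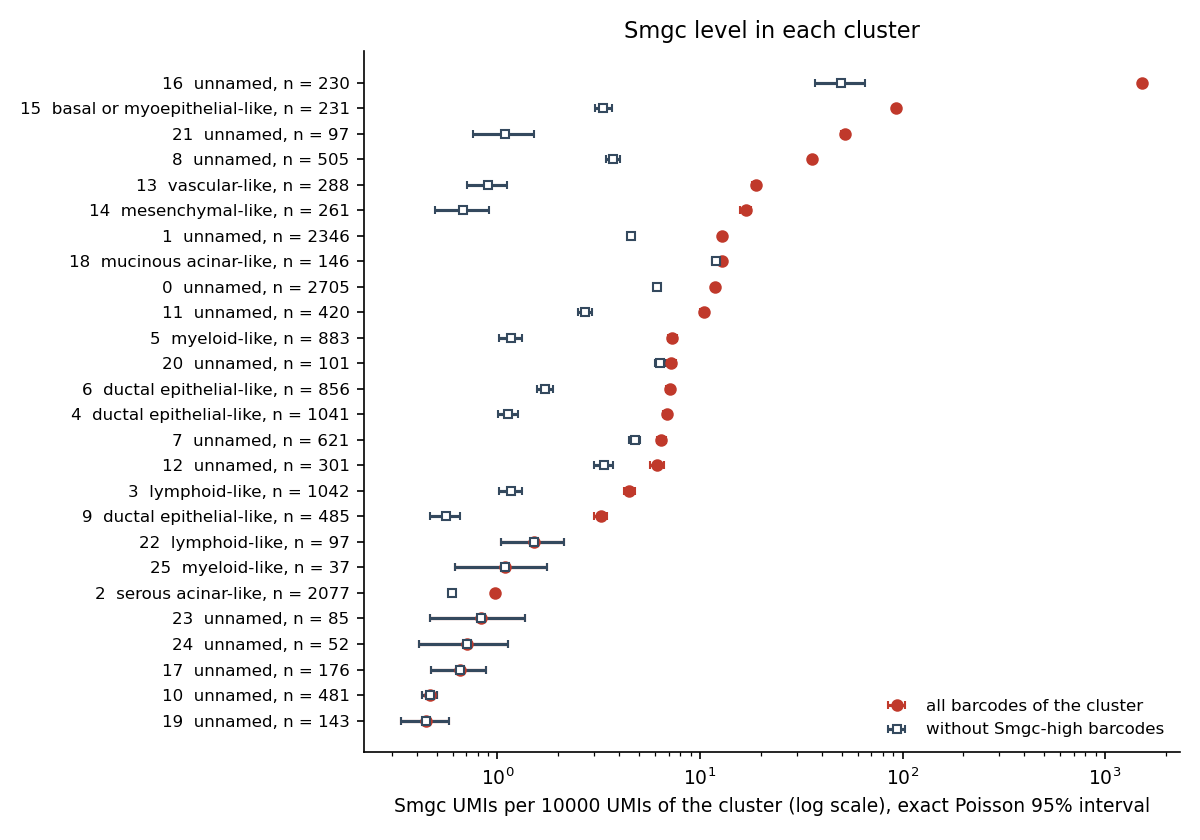
Smgc UMIs per 10000 UMIs (x axis, log scale) in each of the 26 clusters (y axis, in order of level, with the number of barcodes), with exact Poisson 95% intervals. Filled circles are all barcodes and open squares the barcodes that are not Smgc-high. Cluster 16 stands at 1526, and clusters 15, 21, 8, 13 and 14 fall to under 4 without Smgc-high barcodes.

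Free RNA in the droplets can add to these shares. In lymphoid-like barcodes, white blood cells that should lack a salivary secretory product, 19.1% had a Smgc UMI at a median of 1815 UMIs. The shares were 20.98% in myeloid-like, 14.9% in mesenchymal-like and 21.5% in vascular-like barcodes, and 21.8% in ductal epithelial-like barcodes at a median of 2755 UMIs. These shares include the few Smgc-high barcodes, and the part of free RNA in them was not tested. Outside Smgc-high, the mean was 0.239 Smgc UMIs per lymphoid-like barcode, 0.277 per myeloid-like, 0.169 per mesenchymal-like and 0.273 per vascular-like barcode. The means were 1.95 and 2.55 in clusters 0 and 1, where 42.8% and 40.1% of barcodes had a Smgc UMI at medians of 2087 and 2321 UMIs, 13.3 and 12.5 in clusters 18 and 20, and 1.76 in the much deeper serous acinar-like cluster 2.

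Depth was then made equal. With every barcode thinned to 1000 UMIs, which left out none, 19.3% had a Smgc UMI in place of 36.5%. The share was 99.6% in cluster 16 and 67.1% in the mucinous acinar-like cluster 18. It was 31.8% and 26.7% for clusters 0 and 1, against 10.9% for the lymphoid-like cluster 3. In clusters 7, 11 and 12, which were not counted as epithelial, it was 26.9%, 26.4% and 21.9%, near the shares of clusters 0 and 1. It was 4.72% for the serous acinar-like cluster 2 and 5.15% for the ductal epithelial-like cluster 9. Thinning deep barcodes also thins the free RNA in them, so a low share in cluster 2 is no measure of its background. With free RNA estimated from lymphoid-like barcodes taken away, the Smgc level of cluster 2 was 0.906 in place of 0.971.

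A small number of barcodes with very high Smgc lay outside cluster 16. At 1000 and over per 10000 there were 17, spread over 10 clusters from lymphoid-like and vascular-like to basal or myoepithelial-like (5 barcodes), and they held 16596 Smgc UMIs, 7.79% of the total. Each had 279 to 2152 Smgc UMIs, with a median of 905. All 17 had more UMIs than the median of their own cluster (median 6643 UMIs), all 17 had a higher Scrublet doublet score than that cluster's median, and all 17 had a UMI of Col11a1, Fam25c, Prlr or Fgg, the genes that varied most with Smgc. Those genes were chosen by their correlation with Smgc over all barcodes, these 17 included, so this last count is not independent of the choice. Scrublet called 0 barcodes in the whole matrix as doublets, so its calls were not used. Whether these barcodes each held 2 cells was not tested. Of the 373 barcodes at 100 to under 1000, 45 were in cluster 16, 308 in other epithelial clusters and 20 elsewhere.

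Genes that varied with Smgc were sought over all 15707 barcodes, on natural-log levels per 10000 UMIs other than Smgc with 1 added. The points share a library and its free RNA, and they differ in depth, so the Pearson correlations describe these data. The highest were 0.436 for Col11a1, a chain of the fibrillar collagen type XI, 0.411 for Fam25c, 0.350 for Prlr, the prolactin receptor, and 0.327 for Fgg, the fibrinogen gamma chain. Then came Serpinb11, a serpin (0.282), Phyh, a peroxisomal enzyme of phytanic acid breakdown (0.262), Fxyd3, a regulator of the sodium pump (0.244), Lman1l, a lectin-like protein (0.228), Ank2, an ankyrin (0.223), and Gdpd1, a phosphodiesterase (0.222). Most of these values are low, and the order depended on the measure. Only 6 of the 10 stayed among the first 10 after thinning to 1000 UMIs, and 6 with Spearman correlations, while 7 did over epithelial barcodes alone. Col11a1, Fam25c and Fgg were among the first 10 in each of these, and Prlr in all but the Spearman ranking.

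The first 4 genes had most or much of their RNA in the Smgc-rich cluster. Cluster 16 held 70.3% of all Col11a1 UMIs, 57.5% of Fgg, 35.7% of Fam25c and 27.5% of Prlr in its 230 barcodes. Col11a1 was found in 59.6% of its barcodes and in 0.562% elsewhere. For Prlr these shares were 77.8% and 6.49%, for Fam25c 66.1% and 3.28%, and for Fgg 37.4% and 1.01%. Levels per 10000 UMIs other than Smgc were 3.75 for Col11a1 against 0.142 in the next cluster, 5.90 against 0.481 for Prlr, 5.27 against 1.29 for Fam25c and 4.61 against 0.426 for Fgg. For all 4 the intervals of the 2 clusters did not overlap. Haptoglobin (Hp, chosen after its values were seen), another plasma protein gene, was at 7.33 in cluster 16 and had 25.6% of its UMIs there. Within cluster 16, the Smgc level and these genes were only loosely related, with a Pearson correlation of 0.355 for Col11a1, 0.304 for Phyh and 0.031 for Prlr over 230 barcodes.

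Over the 26 clusters, on log2 levels with 0.1 added, the genes most like Smgc were Fgg (Pearson correlation 0.818), Prlr (0.813), the receptor tyrosine kinase gene Tyro3 (0.807), Nudcd1 (0.797), Fam161a (0.794), the small GTPase gene Rhoq (0.785), the long intergenic RNA 1810044D09Rik (0.783), the solute carrier gene Slc35f5 (0.780), Fam25c (0.777) and Col11a1 (0.762). Tyro3, Nudcd1 and 1810044D09Rik had 9, 18 and 17 UMIs in cluster 16, so their places rest on few molecules.

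By the ratio of levels in Smgc-high against other epithelial barcodes, the first 10 were Col11a1 (497), 5530400C23Rik (484), Gm44410 (362), the fibrinogen beta chain gene Fgb (331), the tolloid-like metalloprotease gene Tll1 (237), A530053G22Rik (176), the doublecortin-domain gene Dcdc2a (153), Fgg (139), Fam25c (42.6) and Tmem59l (39.0). These ratios used the same barcodes that Smgc itself selected. They also rose with the denominator: with the 10 most abundant transcripts of the matrix taken out of the sums, the ratio was 186 for Col11a1, 181 for 5530400C23Rik, 135 for Gm44410, 124 for Fgb, 88.6 for Tll1, 65.7 for A530053G22Rik, 57.3 for Dcdc2a, 52.0 for Fgg, 15.9 for Fam25c and 14.6 for Tmem59l. Col11a1, Gm44410 and Tll1 had 70.3%, 72.4% and 65.0% of their UMIs in cluster 16. Fgg (chr3:83007724-83015049, plus strand) and Fgb (chr3:83040141-83049863, minus strand) are neighbours on chromosome 3, and Gm44410 (chr6:60489956-60490445, plus strand) and A530053G22Rik (chr6:60279043-60403707, minus strand) lie close to each other on chromosome 6. Fga, the gene of the remaining fibrinogen chain, had 0 UMIs in the matrix.

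Col11a1, Fam25c, Prlr and Fgg were then summed in barcodes grouped by Smgc level. They had been chosen for their correlation with Smgc over these barcodes, so a rise with Smgc was built in and only its place is of interest. Outside cluster 16, in other epithelial clusters, their summed level was 0.145 per 10000 UMIs other than Smgc in barcodes with 0 Smgc UMIs, 0.117 above 0 and under 10, and 0.868 at 10 to under 100. It was 2.57 at 100 to under 1000 (308 barcodes) and 7.22 at 1000 and over (9 barcodes). In clusters that were not epithelial it was 0.067, 0.080, 0.568, 2.27 and 13.0 over the same ranges. In cluster 16 it was 13.3 at 100 to under 1000 and 21.3 at 1000 and over. Within the range of 100 to under 1000 the groups were not at the same Smgc level, with medians of 550 in cluster 16 and 157 in other epithelial barcodes, nor at the same depth, with medians of 3151 and 1937 UMIs. Split at 316, a division added after the data were seen, the 4 genes were at 9.51 (6.70 to 13.1) in 12 barcodes of cluster 16 and 1.85 (1.62 to 2.11) in 267 other epithelial barcodes below it. Above it they were at 14.4 (12.4 to 16.6) in 33 and 6.64 (5.605 to 7.81) in 41 barcodes, where the median Smgc levels were still 620 and 451.

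**Figure D4:**
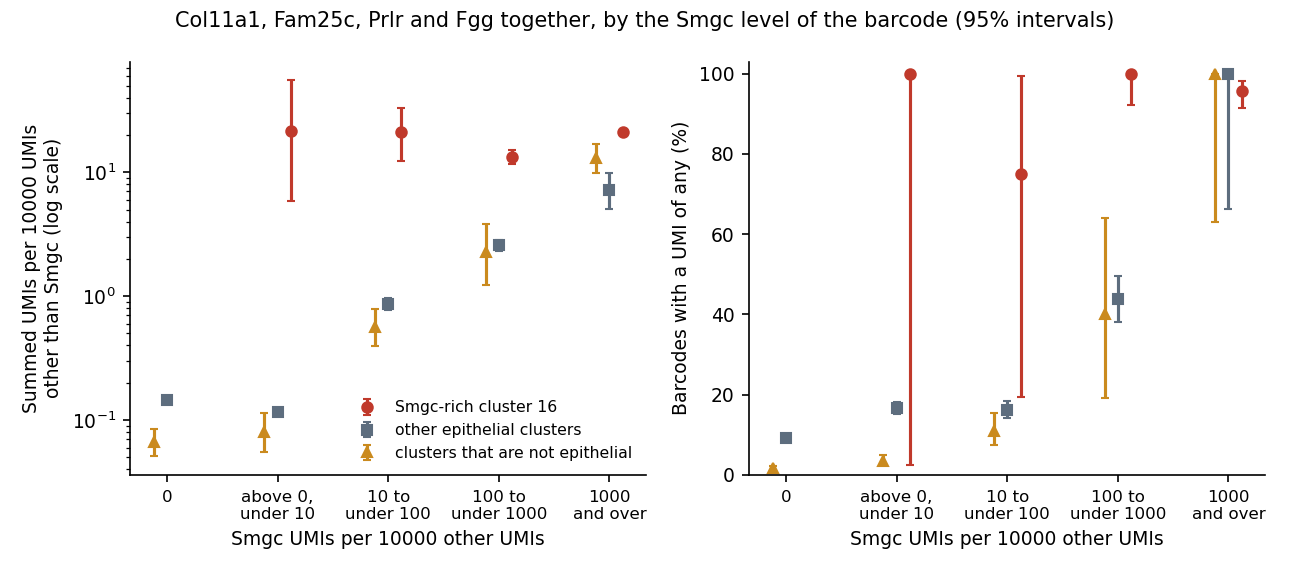
Summed level of Col11a1, Fam25c, Prlr and Fgg per 10000 UMIs other than Smgc (left, log scale) and share of barcodes with a UMI of any of them (right, percent) by the Smgc level of the barcode, with 95% intervals. Red circles are cluster 16, grey squares other epithelial clusters and ochre triangles clusters that are not epithelial. At 100 to under 1000 the red circle is at 13.3 and the grey square at 2.57, with median Smgc levels of 550 and 157.

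Gene lists were compared between the 542 Smgc-high and the other epithelial barcodes by a 2-fold rule on summed levels, since 1 sample allows no test. Per 10000 UMIs other than Smgc, 9263 of 12874 genes were at least 2-fold higher in Smgc-high barcodes (72.0%) and 52 were at least 2-fold lower (0.404%), with a median log2 ratio of 1.54. The shift was far smaller on another denominator. With the 10 most abundant transcripts taken out of the sums, 769 of 12864 genes were higher (5.98%) and 673 lower (5.23%), with a median log2 ratio of 0.12. For cluster 16 against the other epithelial barcodes, an alternative added after the data were seen, 758 were higher (5.89%) and 1117 lower (8.68%). The counts of list members below leave those 10 transcripts out and stand beside these percentages, and the count with all UMIs other than Smgc in the denominator is given after each.

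Of the 6 intercalated duct markers, 4 were higher in Smgc-high barcodes and 1 lower (5 and 0 with all other UMIs in the denominator). Sox9, a transcription factor of duct and progenitor cells, was at 9.30 per 10000 against 3.87, and Gstt1, a glutathione transferase, at 1.32 against 0.274. Gfra3, a receptor of the GDNF family, and Nkd2, a Wnt pathway inhibitor, were also past 2-fold but low, at 0.115 against 0.039 and 0.532 against 0.260. Per 10000 UMIs other than Smgc, cluster 8 had more of these 2 genes (0.266 and 1.04) than cluster 16 (0.116 and 0.258). On that scale Gstt1 was higher in the mesenchymal-like cluster 14 (2.63) than in cluster 16 (1.49), while Sox9 was highest in cluster 16 (8.24). Fxyd2, a subunit of the sodium pump, was lower, at 8.75 against 43.2. In cluster 16 itself 3 of the 6 were higher and 1 was lower, with Sox9 at 9.83 against 3.99, Gstt1 at 1.78 against 0.287 and Fxyd2 at 1.83 against 42.5. Kit, the stem cell factor receptor, did not pass 2-fold there, at 0.615 against 0.705, but with all other UMIs in the denominator it was past 2-fold higher, at 0.515 against 0.142.

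The direction of the other duct lists depended on the denominator. Of 13 ductal epithelial markers, 2 were higher and 8 lower, but with all other UMIs in the denominator 4 were higher, Krt8 and Krt18 among them, and 2 lower, Klk1b5 and Foxi1. The higher ones were Slc9a3, a sodium-proton exchanger (0.655 against 0.154), and Slc13a2, a citrate and succinate carrier (0.614 against 0.133). The lower ones included the kallikrein gene Klk1 (86.1 against 377), and Ascl3 and Foxi1, transcription factors of ionocyte-like duct cells (0.352 against 1.63 and 0.147 against 1.29). In cluster 16 the counts were 2 higher and 9 lower, with Klk1 at 12.4 against 372 and Foxi1 at 0.061 against 1.26. Of 16 acinar and duct transport genes, 2 were higher and 6 lower, among them all 3 subunit genes of the epithelial sodium channel, but with all other UMIs in the denominator 7 were higher and 0 lower.

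Secretory products other than Smgc were lower more often than higher on both denominators. Of the 11 compared without the 10 most abundant transcripts, 9 were lower, such as Bpifa2, a bacteria-binding secreted protein (35.2 against 212), and A2ml1, a protease inhibitor of mucous cells (4.58 against 21.5). Esp4 was higher, at 3.40 against 1.04. With all other UMIs in the denominator, 1 of 21 was higher and 5 were lower, namely Bpifa2, Dcpp1, Dcpp2, Dcpp3 and Pglyrp1. On that denominator 2 were higher and 0 lower at a limit of 50, and 1 was higher and 13 lower at 200. The direction of this list thus depended on the limit. Among 7 serous acinar markers 1 was higher, Lman1l, and 3 were lower (1 and 1 of 10 with all other UMIs). Aqp5, the acinar water channel, and Cldn10, a tight junction protein, turned with the denominator in cluster 16. They were at 6.50 against 9.17 and 5.36 against 8.31 without the 10 transcripts. With all other UMIs they were at 5.45 against 1.85 and 4.50 against 1.68, past 2-fold higher. The prolactin-inducible protein gene Pip, itself 1 of the 10 most abundant transcripts, was at 233 per 10000 UMIs other than Smgc in cluster 16, just above the 222 of cluster 2. In Smgc-high barcodes Pip was at 181 against 167 in other epithelial barcodes on that denominator. With the 10 most abundant transcripts taken out of the sums, the same comparison gave 339 against 837. The remaining lists turned with the denominator. Of 6 mucinous acinar markers 0 were higher and 3 lower, against 3 and 0 with all other UMIs. Of 16 regulators of secretory cells 1 was higher (Sox9) and 5 lower, against 8 and 1. Of 9 mucin glycosylation genes 1 was higher and 2 lower, against 4 and 0. Of 22 genes of ER translocation, folding and export 0 were higher and 1 lower, against 12 and 0, and these last were 7 and 0 at a Smgc-high limit of 50 and 20 and 0 at a limit of 200. No direction is therefore given for these lists.

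The basal or myoepithelial list changed sides with the choice of barcodes. In Smgc-high barcodes 5 of 8 members were higher and 0 lower (8 and 0 with all other UMIs in the denominator), with Acta2, smooth muscle actin, at 1.80 against 0.798 and Cnn1, calponin, at 0.393 against 0.103. In cluster 16, 0 of the 8 were higher and 7 lower, with Acta2 at 0.184 against 0.871 and 0 Krt5 UMIs. With all other UMIs in the denominator, the ratios for cluster 16 ran from 0.253 for Krt14 to 3.35 for Trp63, with Acta2 at 0.879. Only Acta2 had more than 1 UMI there, and counts under 3 were set to 3. Outside cluster 16, 16 Smgc-high barcodes were in the basal or myoepithelial-like cluster 15 and 4 in cluster 20, and their part in the first count was not tested. For other cell types, the counts in Smgc-high barcodes were 0 higher and 1 lower of 8 lymphoid markers, 1 and 0 of 9 myeloid, 0 and 1 of 7 vascular, 3 and 0 of 6 mesenchymal, 0 and 1 of 4 pericyte, 0 and 1 of 2 Schwann cell and 1 and 0 of 5 erythroid markers. Of 8 proliferation genes 0 were higher and 1 was lower. With all other UMIs in the denominator these counts were 4 and 0 for lymphoid, 8 and 0 for myeloid, 0 and 0 for vascular, 6 and 0 for mesenchymal, 1 and 1 for pericyte, 0 and 0 for Schwann cell, 5 and 0 for erythroid markers and 4 and 0 for proliferation genes.

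Smgc and Muc19 were highest in different clusters. Muc19 had 32863 UMIs, found in 1591 barcodes (10.1%, 9.66 to 10.6), and 27521 of them were in the mucinous acinar-like cluster 18, at a level of 172 (170 to 174) per 10000. In the Smgc-rich cluster 16 the Muc19 level was 0.884 (0.702 to 1.10), from 81 UMIs, with a UMI in 19.1% of barcodes and at most 5 in any. This Muc19 level was the sixth highest of the 26 clusters, under the 1.89 and 2.80 of clusters 0 and 20.

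By share of barcodes the reverse looked different, since Smgc was present in most barcodes of the Muc19-rich cluster. By level Smgc was far below its peak there, at 12.8 per 10000 (rank 8 among the clusters) against 1526 in the Smgc-rich cluster. Smgc had more UMIs in all than Muc19, and the Muc19-rich cluster was the deeper of the 2. The shares of barcodes are therefore not directly comparable. In cluster 18, 137 of 146 barcodes had a Smgc UMI (93.8%, 88.6 to 97.1), with a median of 10.5 UMIs, a highest count of 68 and a sum of 2040. By Muc19 count, the median Smgc count was 2.5 in 4 barcodes with under 10 Muc19 UMIs, 7 in 45 barcodes with 10 to under 100, 11 in 66 with 100 to under 300, and 18 in 31 with 300 or more. The Smgc level did not follow this order, at 7.98, 24.6, 9.52 and 14.3 per 10000, and Smgc UMIs per Muc19 UMI fell from 0.5 and 0.317 to 0.067 and 0.050. Over the 146 barcodes the log levels of the 2 genes had a Pearson correlation of 0.418 (Spearman 0.433). Both counts also moved with depth there, with correlations with the log of total UMIs of 0.398 for Smgc and 0.514 for Muc19.

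Over all barcodes the 2 genes overlapped in part. Both had a UMI in 976 barcodes, 17.0% of those with Smgc and 61.3% of those with Muc19, where independent genes would give 581. The Pearson correlation of log levels was 0.210 (Spearman 0.190). It was 0.203 over epithelial barcodes, 0.184 without clusters 16 and 18, and -0.043 within cluster 16. Among other clusters it was 0.225 in cluster 0 and 0.425 in cluster 7, which held markers of both vessels and acini and where 96 of the 110 barcodes with Muc19 also had Smgc (44.3 if independent). These values are descriptions only, since the counts are sparse, barcodes differ in depth, and free RNA of both genes is shared by all barcodes. The part of each in the overlap was not tested. High counts of both were rare: at least 100 Smgc and at least 10 Muc19 UMIs occurred together in 3 barcodes, in clusters 0, 6 and 20, with 102 and 10, 701 and 141, and 129 and 12 UMIs.

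**Figure D5:**
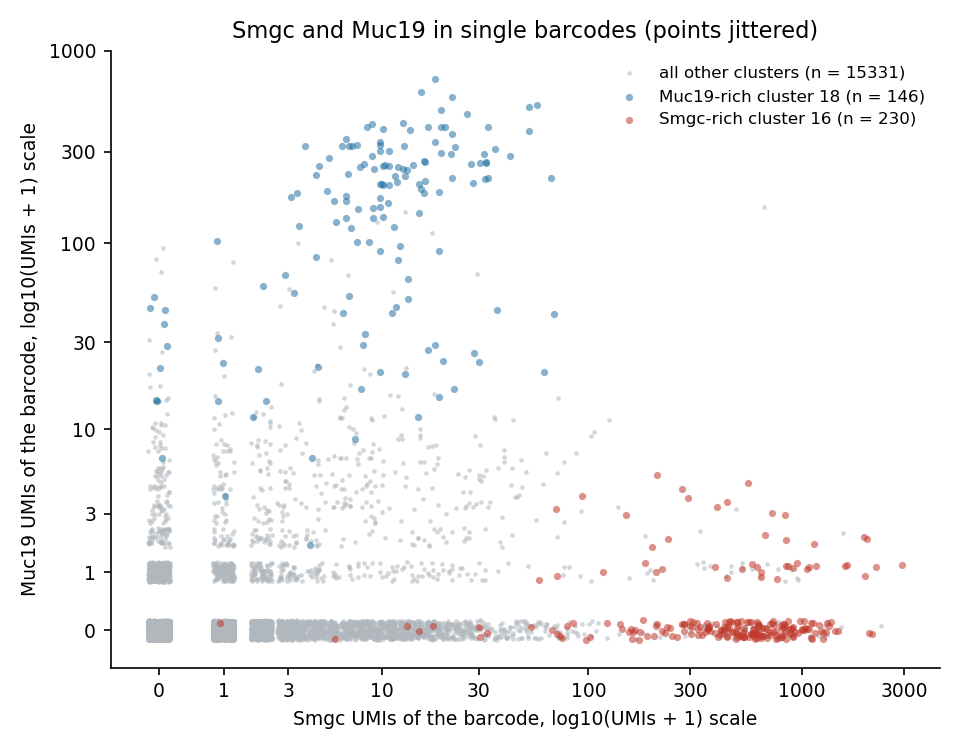
Smgc UMIs (x axis) and Muc19 UMIs (y axis) of each barcode, both on a log10(UMIs + 1) scale, with points jittered. Red points are the 230 barcodes of cluster 16, blue points the 146 of cluster 18 and grey points all others. The red points lie along the bottom with at most 5 Muc19 UMIs, and the blue points reach at most 68 Smgc UMIs.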

How the data were processed

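Per the labels, single-cell suspensions of both glands were made into 10x Genomics 3′ libraries. The authors deposited 1 matrix of raw UMI counts, made with Cell Ranger 6.0.1 on build mm10 (GRCm38) and not normalized. Seurat 4.1.1 is also in the submitters' processing notes. The annotation release of the counts is not given in the sources used here, and the number of mice in the labels differs from that in the study's methods. All 15707 barcodes were kept, as many as the cells the study counted, and none was removed as a doublet.

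Seurat 5.3.0 (R 4.3.3) log-normalized the counts to 10000 per barcode and clustered them on 2000 variable genes less Smgc and Muc19, 20 principal components and Louvain resolution 0.5. Sums, intervals and correlations used Python 3.11.15, numpy 2.4.6, scipy 1.17.1 and pandas 2.3.3, and doublet scores scanpy 1.11.5. A cluster was named when at least 3 markers of 1 list were in at least 25% of its barcodes and above all other lists, with a median of at least 500 genes and a marker among its 10 leading genes. That rule was set after the clusters were seen. Correlations used 10054 genes found in at least 1% of barcodes, and ratios genes with at least 20 UMIs, with counts under 3 set to 3. Genes named were Smgc, Muc19, the 10 most correlated over barcodes, the 10 over clusters, the 10 with the largest ratio among genes with at least 50 UMIs in Smgc-high barcodes, and the listed markers. The gene and all lists were chosen with earlier results of these data known. The steps were tested on simulated data: of 200 genes raised 4-fold in 300 of 3000 barcodes, 100% were past 2-fold, as were 1.68% of unchanged genes, with 11182 genes compared. The raised genes did not include the 10 most abundant transcripts, so the simulation did not cover the dependence on the denominator. Alternatives were other cluster settings, barcode filters, thinning, limits and denominators.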

Additional observations from a re-analysis of the deposited data

How the results depend on the processing

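The direction of several gene lists depended on the denominator or the barcodes compared. Without the 10 most abundant transcripts, 5 basal or myoepithelial markers were higher and 0 lower in Smgc-high barcodes. In the Smgc-rich cluster, on the same denominator, the counts were 0 and 7. Leaving out those transcripts moved ductal markers from 4 and 2 to 2 and 8 and regulators of secretory cells from 8 and 1 to 1 and 5. The median log2 ratio of mucinous acinar markers went from 0.57 to -0.84. The cluster highest in Smgc was found again under each cluster setting. It kept 100% of the 230 barcodes at resolutions 0.3 and 0.8, 98.7% with 30 principal components and 72.2% with 10, where it had 185 barcodes, a level of 1475 and 47.6% of Smgc UMIs. Its share of Smgc UMIs was 66.8% with 30 principal components, 67.0% with Smgc and Muc19 among the variable genes, 66.2% under a filter on barcodes (200 genes or more, mitochondrial share up to 20%), and 68.8% without the 10% highest doublet scores. Its ratio to the next cluster was 9.09 with 30 principal components and 10.6 on mean UMIs per barcode, of which it had 608. Its level was 1768 without the 10 most abundant transcripts and 1757 with free RNA taken away. Without Smgc-high barcodes, an alternative chosen after seeing the data, 5 barcodes remained, with a level of 49.6, 4.13 times the next cluster's, and 0.227% of Smgc UMIs.

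The share of barcodes with a Smgc UMI was 37.5% after the filter on genes and mitochondrial UMIs, 14.4% at 500 and 19.3% at 1000 UMIs per barcode, so it depends on depth. The top 1% of barcodes held 64.2% of Smgc UMIs after that filter, 64.3% without high doublet scores, and 62.2% at both depths. Smgc-high barcodes were 4.02% at 500 UMIs, 6.06% at a limit of 50 and 2.21% at a limit of 200. At 1000 UMIs, the Muc19-rich cluster had a Smgc UMI in 67.1% of barcodes, a level of 24.0 and a correlation of 0.356 with Muc19, and 6 of the 10 most correlated genes stayed, as with Spearman correlations (6). Genes 2-fold lower in Smgc-high barcodes were 31 at a limit of 50. Counts of higher and lower genes were 769 and 673 without the 10 most abundant transcripts, and 758 and 1117 for the Smgc-rich cluster, so counts of list members depend on the denominator.

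No paired analysis was possible because no barcode carried a replicate number, and for the same reason none was left out. Counts of 0 limit only what was detectable at this depth.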

Other observations

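Other genes stood out in the Smgc-rich cluster, all chosen after their values were seen and given as levels per 10000 UMIs other than Smgc. Mif, the gene of macrophage migration inhibitory factor, was at 18.1 (17.2 to 19.1) against 6.05 in the next cluster. Fdps, which makes farnesyl diphosphate on the way to cholesterol, was at 3.90 (3.48 to 4.37) against 1.13 in the next cluster, and was found in 50% of the 230 barcodes and in 11.0% elsewhere. Intervals overlapped or the order changed for other genes of the same pathway. Idi1 (isopentenyl diphosphate isomerase) was at 0.850 (0.658 to 1.08) against 0.464 (0.313 to 0.663) in the next cluster. Sqle (squalene epoxidase) was at 0.528 against 0.474 in the next cluster, with overlapping intervals, and Hmgcs1, which acts earlier, was only the sixth highest of 26, at 0.361. Kitl, the gene of stem cell factor, was at 2.19 (1.87 to 2.54), under the 3.00 (2.64 to 3.38) of the vascular-like cluster 13. Ptprc, the pan-leukocyte gene, had 1 UMI in the whole Smgc-rich cluster.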
